A study of Mus musculus with 12 samples.

Results

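Pluripotency factors are the genes whose activity defines embryonic stem cells, and 10 of them were examined in neural progenitor cells (NPCs): Pou5f1, Nanog, Klf4, Klf2, Esrrb, Zfp42, Dppa4, Lin28a, Sall4 and Tfcp2l1. All probes whose transcript maps to one of these genes were taken, which gave 17 of the 55681 probes on the array, and 10 of the 21154 genes its named probes represent. The cells were mouse NPCs made by differentiation in vitro, of lines that descend from embryonic stem cells (ESCs), and kept with epidermal growth factor and basic fibroblast growth factor. Cy3-labelled copies of total RNA were hybridized to Agilent oligonucleotide arrays, 1 sample on each of 12 arrays, in 6 groups of 2. In the overexpression experiment the cells carried a retroviral transgene for Mkl1, for Srf or, as the control, for the fluorescent protein EGFP. In the knockdown experiment a retroviral hairpin RNA was directed at the β-actin gene Actb (shActb_1 or shActb_2) or, as the control, at EGFP (shEGFP). Srf is a transcription factor of the cytoskeleton and of growth responses, and Mkl1 is its cofactor, which monomeric actin keeps inactive. The question behind the comparisons was how these 3 interventions, which act on one pathway, changed gene expression in NPCs.

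Some features of the cells limit them as a model. Per the study's methods, the NPC lines descend from the ESC line EB5, which carries a blasticidin resistance gene in the Pou5f1 (Oct4) locus. The parent line NSEB5-2C has no reprogramming transgenes, whereas N31 and its derivative N31P carry doxycycline-inducible Pou5f1, Klf4, Myc and Sox2. To obtain N31, cells of the parent line were reprogrammed to induced pluripotent stem cells, which were then differentiated again. The methods name NSEB5-2C or N31 for molecular work without saying which was on the arrays, and whether the Pou5f1 and Klf4 probes read a transgene was not tested. The study describes the duplicate arrays of the Actb knockdown as technical, so p-values measure only the error between arrays, which may not include any spread between cultures. In RNA from a whole culture, fewer cells with a transcript and less of it per cell cannot be told apart.

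Pou5f1 and Nanog are the core of the pluripotency network: together with Sox2 they occupy enhancers of their own genes and of each other's. Esrrb, Klf2, Klf4 and Tfcp2l1 form an ancillary layer that keeps ESCs in the naive state and supports their self-renewal. Zfp42, Dppa4, Lin28a and Sall4 are markers or helpers of that state. On differentiation to neural cells most of these genes are shut down, and their return marks reprogramming to induced pluripotent stem cells. Klf4 and Klf2 are also expressed outside ESCs, among others in epithelial and endothelial cells.

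On each array 33000 to 40346 probes (59.3% to 72.5%) were well above background, no spot was saturated, and duplicate arrays correlated at r = 0.993 to 0.998. The 2 shActb_2 arrays stood at the ends of that range, with 72.5% on replicate 1 and 59.3% on replicate 2. The arrays of EGFP, Mkl1 and Srf shared 1 slide and those of shEGFP and shActb_1 another. Those of shActb_2 lay alone on the third, so slide and second hairpin cannot be told apart. The targeted genes were checked first. Actb was lower by 0.53 on the log2 scale with shActb_1 (adjusted p = 0.00128, limma) and by 0.65 with shActb_2 (adjusted p = 0.000196), both under 2-fold. The probes of Mkl1 (listed as Mrtfa) differed from EGFP by 0.20 and 0.17 on the Mkl1 arrays (limma, adjusted p = 0.12 and 0.312). Neither passed, so "with Mkl1" stands for the label of those arrays. The 2 Srf probes went against the label, as on the arrays labelled Srf one fell by 2.46 and the other fell by 1.40 (adjusted p = 2.54e-06 and 0.000266). The same probes differed from the control by 0.71 and 1.18 with Mkl1, by 0.90 and 0.60 with shActb_1 and by 0.97 and 0.75 with shActb_2, all higher (highest adjusted p = 0.0267). Whether these probes can read the transgene was not determined, and the arrays are called "labelled Srf", with Srf in the name of a comparison or replicate standing for the label alone.

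The labelled cell type was checked against its markers. Of 12 neural progenitor markers, 9 to 11 were well above background on both arrays of a group. Nes, Sox2, Sox1, Pax6, Fabp7, Vim, Msi1, Slc1a3 and Notch1 were so on all 12 arrays, whereas Olig2 was on 1. Of 18 ESC markers, a list that includes the 10 genes themselves, 13 to 15 were well above background on both arrays of a group and 3 on neither. Fgf4 and Nr0b1 were above background on no array and Dppa3 on 1. Markers of other cell types were detected as often. On both arrays of every group this held for 6 of 6 mesenchymal markers and for 5 of 6 of the oligodendrocyte lineage and of primitive endoderm. Of all probes 59.3% to 72.5% were well above background on an array, so detection alone does not tell cell types apart.

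Promoters are shown for Esrrb and Nanog, the genes with a call, and for Klf4, a factor of the reprogramming cocktail. They comprise the 250 bases before an annotated transcription start in RefSeq's GRCm38.p6 table, which held 11 promoters for 8 of the 10 genes, Sall4 and Dppa4 having none there. Capitals mark 5 motifs searched on both strands: the octamer core TTTGCAT, the Sox core CATTGT, the GC box GGGCGG, the Esrrb core AAGGTCA and the CArG box, the binding motif of Srf, given by name. Among 32851 promoters of the same length these motifs were found in 4.12%, 10.7%, 32.7%, 4.08% and 1.47%, respectively. Both Esrrb promoters are printed, with the first of Nanog and that of Klf4. They lie at chr12:86360867-86361116 and chr12:86421394-86421643 (plus strand), chr6:122707239-122707488 (plus strand) and chr4:55532476-55532725 (minus strand), and each reads 5′ to 3′ towards the start.
Esrrb, upstream start: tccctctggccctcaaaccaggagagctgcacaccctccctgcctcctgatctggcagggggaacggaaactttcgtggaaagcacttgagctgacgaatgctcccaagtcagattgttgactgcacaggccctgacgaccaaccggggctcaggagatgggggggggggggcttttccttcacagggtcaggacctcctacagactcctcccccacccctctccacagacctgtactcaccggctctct
Esrrb, downstream start: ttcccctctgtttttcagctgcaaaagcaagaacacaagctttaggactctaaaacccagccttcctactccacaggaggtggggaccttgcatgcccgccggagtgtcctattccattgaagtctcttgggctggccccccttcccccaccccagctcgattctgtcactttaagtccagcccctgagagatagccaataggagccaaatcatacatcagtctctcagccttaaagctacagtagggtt
Nanog: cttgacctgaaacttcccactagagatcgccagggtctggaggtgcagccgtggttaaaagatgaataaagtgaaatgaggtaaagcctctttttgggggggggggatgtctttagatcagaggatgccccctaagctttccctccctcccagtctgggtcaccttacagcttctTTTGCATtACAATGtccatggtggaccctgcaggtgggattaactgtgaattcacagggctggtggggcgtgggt
Klf4: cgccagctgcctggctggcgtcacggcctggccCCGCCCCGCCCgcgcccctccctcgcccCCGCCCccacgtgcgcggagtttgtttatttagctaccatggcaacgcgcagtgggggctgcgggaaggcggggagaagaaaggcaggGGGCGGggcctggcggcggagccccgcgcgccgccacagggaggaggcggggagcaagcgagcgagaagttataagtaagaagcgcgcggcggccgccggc

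The Nanog promoter held an octamer core at 75 to 69 bases before the start and a Sox core on the opposite strand at 67 to 62, without overlap, an arrangement on which Pou5f1 and Sox2 are known to bind side by side. The Klf4 promoter held 4 GC boxes, the first pair sharing a base (217 to 212 and 212 to 207 before the start). None of the 5 motifs was found in either Esrrb window. The CArG box was found in none of the 11 windows. These matches describe the letters of the windows alone.

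Of the 17 probes, 10 were well above background on all 12 arrays, and they represent Nanog (3 probes), Klf4, Klf2, Esrrb, Lin28a, Sall4 (1 of 3 probes) and Tfcp2l1 (2 probes). Over the whole array 29232 of 55681 probes were well above background, with a value, on all 12 arrays. Pou5f1 was so on 11 arrays, Zfp42 on 9, and the probes of Dppa4 on 11, 4 and 3. The other two Sall4 probes were above background on no array. Levels are given as log2 signal relative to the 75th percentile of the array, so that 0 is a signal at that percentile. On this scale a probe is compared across arrays and its level is not set against that of another probe.

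**Figure D1:**
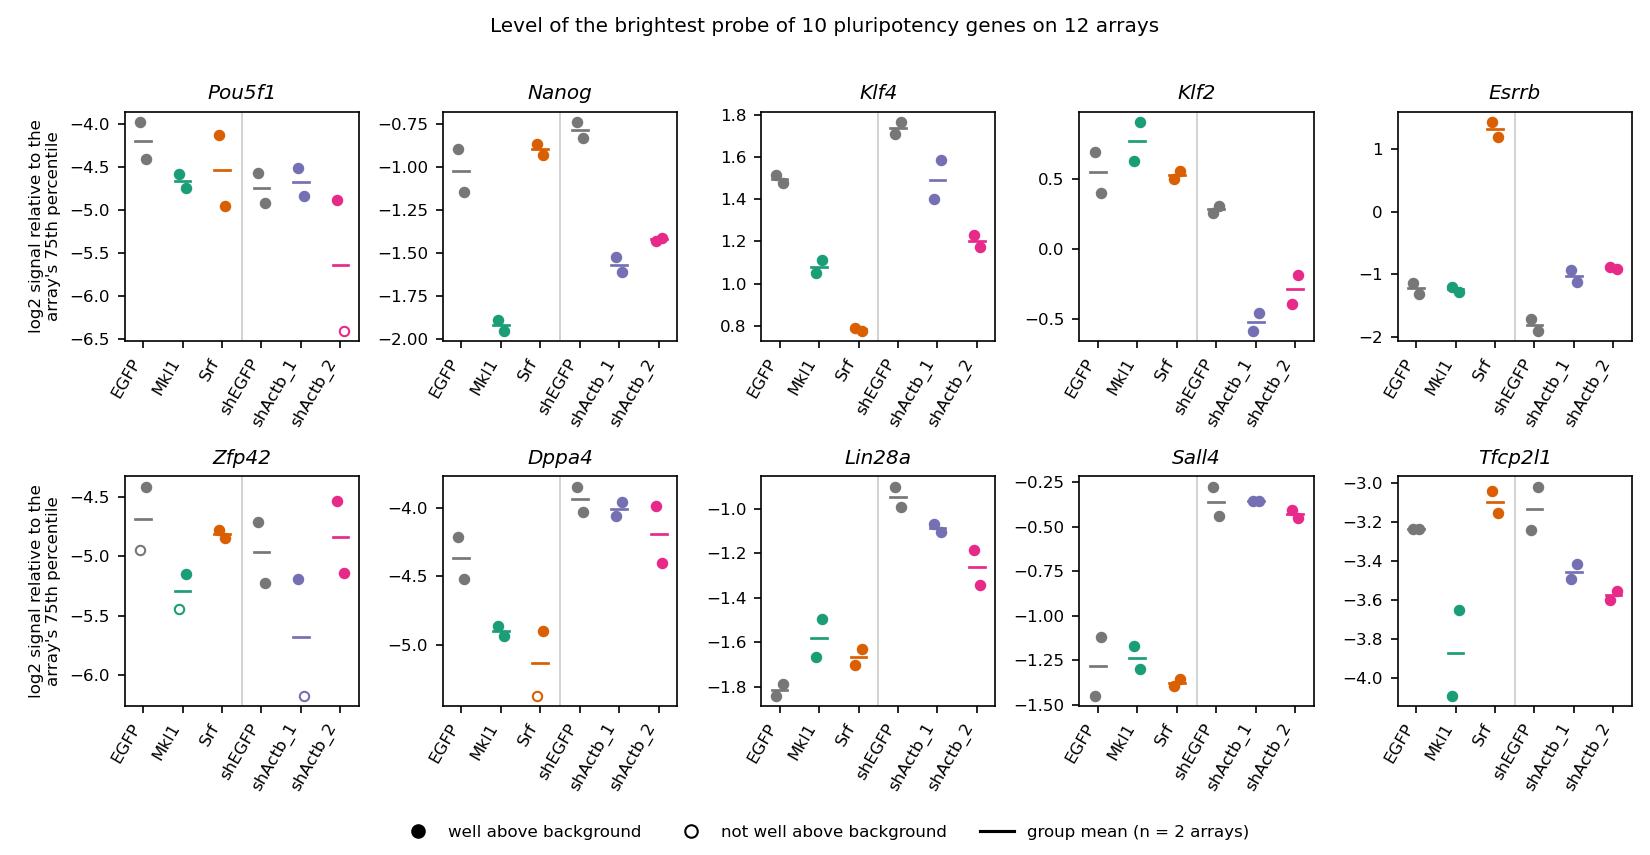
Level of each gene's brightest probe on every array (vertical axis, log2 signal relative to the array's 75th percentile; each panel has its own scale), by group, with 2 arrays per group and their mean as a line. Open circles are arrays on which the probe was not well above background. Esrrb on the arrays labelled Srf (1.43 and 1.19) stood apart from every other array, which lay between -1.90 and -0.89.

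On the arrays labelled Srf, Esrrb rose 5.79-fold and was the only 1 of the 10 genes to change past the criterion, an adjusted p under 0.05 with a fold change over 2. Esrrb is an orphan nuclear receptor that can take the place of Nanog in ESC self-renewal. Its level was 1.43 and 1.19 on the arrays labelled Srf and -1.13 and -1.31 with EGFP. Those groups were thus far apart, at 1.31 ± 0.17 (SD, n = 2) and -1.22 ± 0.13 (SD, n = 2). The log2 difference was 2.53 (SE 0.12, adjusted p = 1.63e-05, limma), and it stayed between 2.27 and 2.65 under the 21 alternatives tried. Among the 14 of the 17 probes that could be tested this was 1 call, against 5.54% of all 35533 probes tested.

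Klf4, a zinc finger factor of the reprogramming cocktail, went the other way by less than 2-fold. Its levels of 0.79 and 0.78 on the arrays labelled Srf lay below 1.51 and 1.48 with EGFP, a difference of -0.71 (SE 0.07, adjusted p = 0.000475). The brightest probe of Dppa4, a chromatin protein of pluripotent and germ cells, was also lower there, at -5.37 and -4.90 against -4.21 and -4.52 (difference -0.77, SE 0.20, adjusted p = 0.0254). It was not above background on 1 of those 2 arrays (Srf replicate 1). The value did not pass under 8 of 20 alternatives, among them those without that array or EGFP replicate 1, and came to -0.24 with normexp. By adjusted p alone 3 of the 14 probes passed (21.4%), against 25.5% of all probes tested.

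Most of the other genes on the arrays labelled Srf had small differences from EGFP. The brightest Nanog probe differed by 0.12 (95% interval -0.08 to 0.33), whereas a second (A_55_P2007699) was higher by 0.68 (0.19 to 1.17, adjusted p = 0.052) without overlap between the groups and passed under 5 of 21 alternatives, and the third (A_55_P2007703) differed by -0.08 (-0.40 to 0.23). Klf2 differed by -0.02 (-0.32 to 0.29). Lin28a, the RNA-binding protein that blocks let-7 maturation, differed by 0.15 (-0.05 to 0.34), and Sall4, a zinc finger factor of ESCs, by -0.09 (-0.35 to 0.17). Tfcp2l1, a Grainyhead-like factor of the naive state, differed by 0.14 (-0.19 to 0.47) and by 0.08 (-0.52 to 0.68) with its probes. For Pou5f1 (-0.34, interval -1.47 to 0.78) and Zfp42 (-0.13, interval -0.98 to 0.72), both dim, the interval reached or neared a 2-fold change, so differences of that size were not detectable.

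With Mkl1 no member probe passed the criterion, and the values that passed by adjusted p were all lower than EGFP. The brightest Nanog probe read -1.89 and -1.95 with Mkl1 against -0.90 and -1.15 with EGFP. These groups did not overlap, and the difference of -0.90 (SE 0.09, adjusted p = 0.000923) fell short of 2-fold. It came to -1.02, a call, without EGFP replicate 2. A second Nanog probe (A_55_P2007703) was lower by 0.62 (adjusted p = 0.017), whereas the third (A_55_P2007699) differed by -0.08 (adjusted p = 0.82). The second probe's value ranged from -0.82 to -0.20 and did not pass under 7 of 21 alternatives, among them those without EGFP replicate 1 or Mkl1 replicate 1. Probes of one gene are not replicates of a condition, and Nanog and Pou5f1 have processed pseudogenes, so their signals are uncertain to that extent.

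Klf4 was 1.05 and 1.11 with Mkl1, lower than with EGFP by 0.41 (SE 0.07, adjusted p = 0.00788). Tfcp2l1 was lower by 0.63 (SE 0.14, adjusted p = 0.0185) with one probe and by 0.37 (adjusted p = 0.349) with the other, and without Mkl1 replicate 1 or EGFP replicate 1 the former no longer passed. Esrrb read -1.20 and -1.29 with Mkl1 and differed from EGFP by -0.02 (interval -0.29 to 0.25). Klf2 differed by 0.22 (-0.09 to 0.53) and Sall4 by 0.05 (-0.21 to 0.31). Lin28a was higher by 0.23 (adjusted p = 0.0897) and the brightest Dppa4 probe lower by 0.53 (adjusted p = 0.0949), in both cases without overlap between the groups. The dim Pou5f1 differed by -0.47 (-1.59 to 0.65). Of the 17 probes 12 were tested, 0 were called against 2.78% of all 35745 probes, and 4 passed by adjusted p alone (33.3%) against 20.8%, with 6 at an unadjusted p under 0.05 (limma). All 4 values lost their pass by adjusted p when only the 4 arrays compared were fitted (limma, adjusted p = 0.127 for Klf4 and 0.0798 for the brightest Nanog probe). In that fit 126 of 35745 probes were called, against 995 with all arrays.

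**Figure D2:**
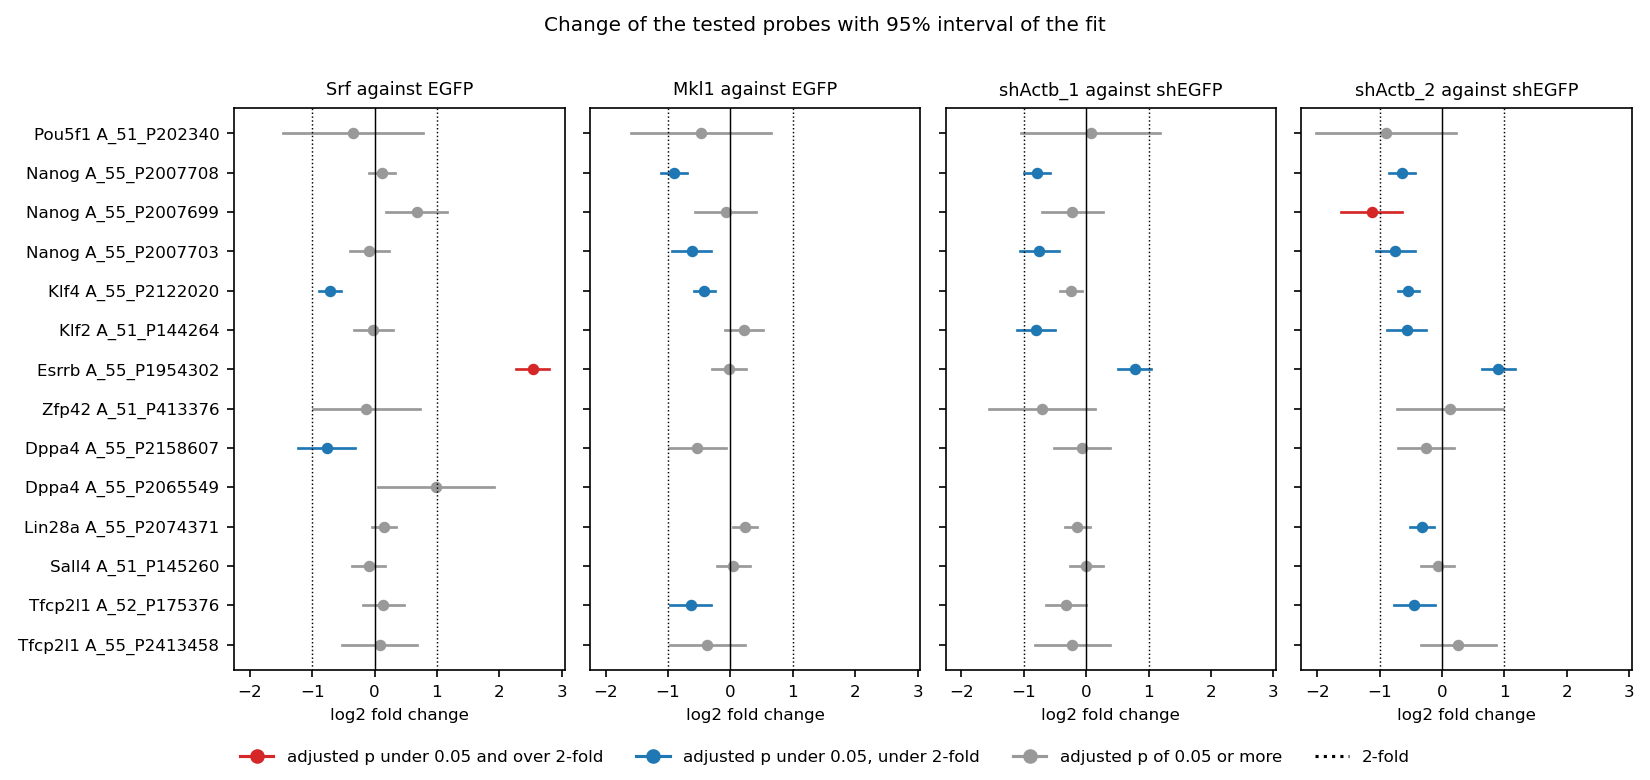
Difference in log2 signal (horizontal axis) for every member probe tested in each of the 4 treatment comparisons, as points with the 95% interval of the limma fit; dotted lines mark 2-fold. Red marks the calls, Esrrb on the arrays labelled Srf (2.53) and one Nanog probe with shActb_2 (-1.12), and blue marks an adjusted p under 0.05 without a 2-fold change.

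With either Actb hairpin Esrrb was higher and Klf2 and the brightest Nanog probe were lower than with shEGFP, by less than 2-fold, and with shActb_2 Klf4 was lower as well. Esrrb read -0.94 and -1.12 with shActb_1 and -0.89 and -0.91 with shActb_2, all above -1.71 and -1.90 with shEGFP. The differences were 0.78 (SE 0.12, adjusted p = 0.00691) and 0.90 (SE 0.12, adjusted p = 0.00107), and the former no longer passed without shActb_1 replicate 1 or when only the 4 arrays were fitted (highest adjusted p = 0.0614). Both hairpins share the shEGFP arrays, so these values do not stand apart from each other.

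Nanog, the homeodomain factor that lets ESCs self-renew without cytokine when its level is raised, was measured by 3 probes. The brightest (A_55_P2007708) read -1.53 and -1.61 with shActb_1, -1.43 and -1.41 with shActb_2, and -0.74 and -0.83 with shEGFP. Both hairpin groups lay below the control, by 0.78 (SE 0.09, adjusted p = 0.00235) and 0.64 (SE 0.09, adjusted p = 0.00151). The dimmest (A_55_P2007703) differed by -0.75 with either hairpin (adjusted p = 0.0138 and 0.00405). The former value ranged from -0.87 to -0.30 and did not pass under 7 of 21 alternatives, among them those without shEGFP replicate 2, shActb_1 replicate 1 or shActb_1 replicate 2. The latter came to -0.35 with normexp and did not pass after quantile normalization (-0.51, adjusted p = 0.0624). The third (A_55_P2007699) read -1.56 and -1.65 with shActb_1, -2.38 and -2.63 with shActb_2, and -1.22 and -1.54 with shEGFP. It fell with shActb_2 by 1.12 (SE 0.21, adjusted p = 0.0049), past 2-fold, and differed with shActb_1 by -0.22 (SE 0.21, adjusted p = 0.643). Without shEGFP replicate 1 the former difference was -0.96, under 2-fold, and with the normexp background correction it was -0.94.

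**Figure D3:**
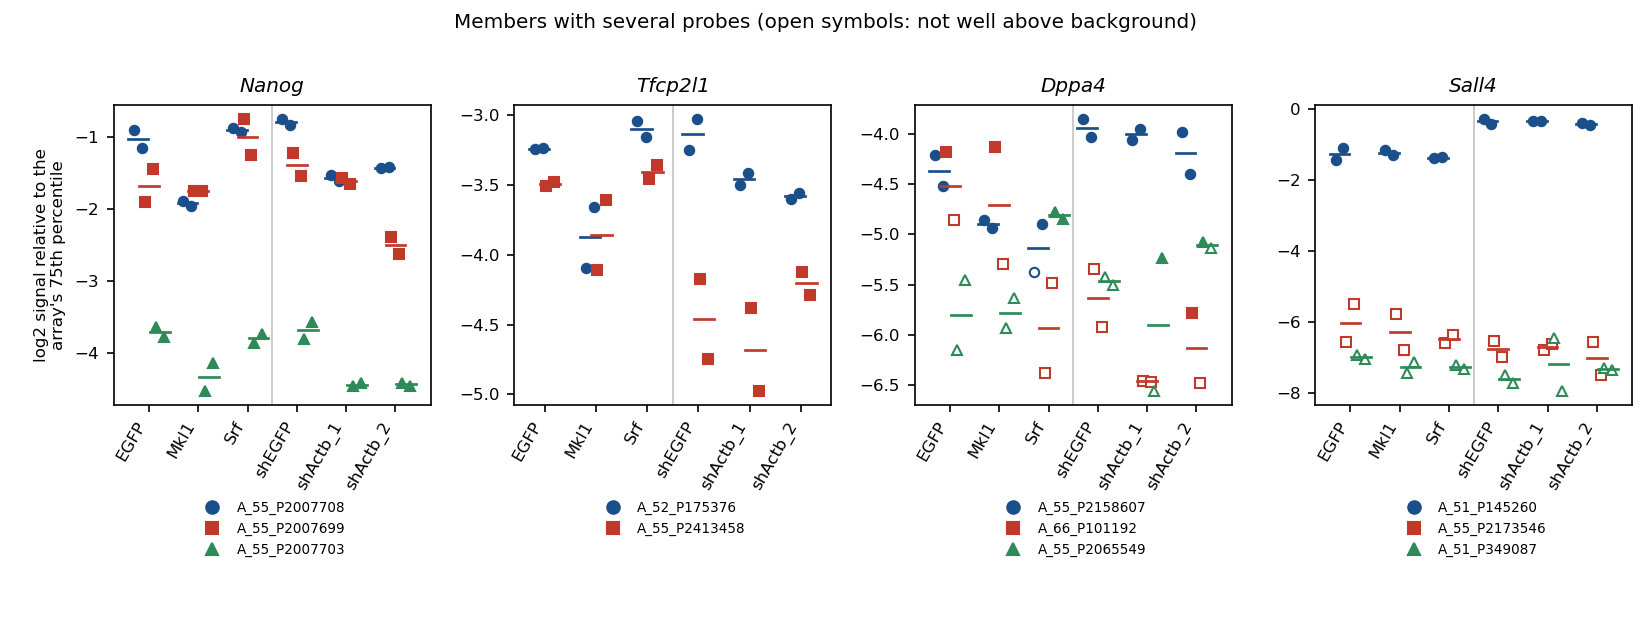
Levels (vertical axis, log2 signal relative to the array's 75th percentile) of all probes of Nanog, Tfcp2l1, Dppa4 and Sall4 on every array, 2 per group, with the group mean as a line. Open symbols were not well above background, which holds for every array of 2 Sall4 probes; of the 3 Nanog probes, A_55_P2007699 separated shActb_2 (-2.38 and -2.63) from shActb_1 (-1.56 and -1.65).

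Klf2, a Krüppel-like factor of naive pluripotency, read -0.58 and -0.46 with shActb_1, -0.39 and -0.18 with shActb_2, and 0.25 and 0.31 with shEGFP. The hairpin arrays were all lower than the control arrays, by 0.80 (SE 0.13, adjusted p = 0.00997) and 0.57 (SE 0.13, adjusted p = 0.0117). Neither difference passed without shEGFP replicate 1 or 2, without shActb_1 replicate 1 in the former case or without shActb_2 replicate 1 in the latter (highest adjusted p = 0.077 and 0.0643). Klf4 read 1.23 and 1.17 with shActb_2 against 1.71 and 1.77 with shEGFP, lower by 0.54 (SE 0.07, adjusted p = 0.00136). With shActb_1 it read 1.40 and 1.59, a difference of -0.25 (SE 0.07, adjusted p = 0.0868).

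Small differences of Lin28a (-0.32, adjusted p = 0.0199) and of one Tfcp2l1 probe (-0.44, adjusted p = 0.0384) passed with shActb_2, and under 14 and 9 of 20 alternatives. Pou5f1, the POU-domain factor at the core of the network, read -4.89 and -6.41 with shActb_2 and -4.57 and -4.93 with shEGFP. The lower value came from shActb_2 replicate 2, where the probe was not well above background and which had the fewest probes above background. The difference was -0.90 (interval -2.01 to 0.22, adjusted p = 0.174), and -0.14 without that array. With shActb_1 Pou5f1 differed by 0.07 (interval -1.05 to 1.19). Sall4 differed by less than 0.01 with shActb_1 (-0.26 to 0.26) and by -0.07 with shActb_2 (-0.33 to 0.19). The brightest Dppa4 probe differed by -0.07 (-0.52 to 0.39) and by -0.25 (-0.71 to 0.20). With shActb_1 Lin28a differed by -0.14 (-0.33 to 0.06) and the Tfcp2l1 probes by -0.32 and -0.22 (adjusted p = 0.226 and 0.731). The other Tfcp2l1 probe differed with shActb_2 by 0.26 (-0.34 to 0.86). Of 13 probes tested with either hairpin, 0 were called with shActb_1 (1.61% of all 36215 probes) and 1 with shActb_2 (6.31% of 36157). By adjusted p alone 4 passed with shActb_1 (30.8%), against 9.42% of all probes, and 5 had an unadjusted p under 0.05 (limma). With shActb_2 8 passed (61.5%), against 40.3%.

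Whether the interventions differed from each other was tested directly. Esrrb was 2.55 higher on the arrays labelled Srf than with Mkl1 (SE 0.12, adjusted p = 1.19e-05), past the criterion. The brightest Nanog probe was 1.02 higher (SE 0.09, adjusted p = 0.000202), also past it. That value lay at 0.99 without Mkl1 replicate 2 or Srf replicate 1, at 0.89 after quantile normalization and at 0.85 with normexp, each under 2-fold and with an adjusted p under 0.05. One Tfcp2l1 probe was 0.77 higher (adjusted p = 0.00599) and Klf4 0.30 lower (adjusted p = 0.0215) than with Mkl1, under 2-fold. The Klf4 value did not pass without any 1 of the 4 arrays compared. The other two Nanog probes were higher by 0.75 (A_55_P2007699, adjusted p = 0.0356) and 0.54 (A_55_P2007703, adjusted p = 0.0229), each passing under 12 of 21 alternatives and not without Srf replicate 1 or Mkl1 replicate 1. Of 14 probes tested 2 were called, against 5.00% of 35696. By adjusted p alone 6 passed (42.9%), against 25.6%.

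Between the hairpins 0 of 13 probes were called, against 5.03% of 35407, and 2 passed by adjusted p alone (15.4%), against 32.1%, as many as at an unadjusted p under 0.05 (limma). They were the third Nanog probe (A_55_P2007699, -0.90 with shActb_2 relative to shActb_1, adjusted p = 0.0155) and Klf4 (-0.29, adjusted p = 0.0202). Esrrb differed by 0.13 (interval -0.14 to 0.40) and Klf2 by 0.23 (-0.07 to 0.54).

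The controls differed from each other too. Lin28a read -0.90 and -0.99 with shEGFP and -1.84 and -1.79 with EGFP, higher by 0.87 (SE 0.08, adjusted p = 0.000622). Sall4 read -0.28 and -0.44 against -1.45 and -1.12, higher by 0.93 (SE 0.11, adjusted p = 0.00145). All 6 arrays of the knockdown experiment lay above all 6 of the overexpression experiment for Lin28a (-1.34 or more against -1.50 or less) and for Sall4 (-0.45 or more against -1.12 or less). Esrrb was lower with shEGFP by 0.58 (adjusted p = 0.00863), and one Tfcp2l1 probe by 0.97 (adjusted p = 0.0244). Klf4 was higher by 0.24 (adjusted p = 0.0368), which passed under 8 of 20 alternatives and was lost without any 1 of the EGFP, shEGFP, Mkl1, Srf or shActb_2 arrays. The Esrrb value did not pass without shEGFP replicate 2, nor that of Tfcp2l1 without EGFP replicate 1 or 2 or shEGFP replicate 2. Of 13 probes tested 0 were called, against 10.2% of 37652, and 5 passed by adjusted p alone (38.5%), against 37.5%, with 6 at an unadjusted p under 0.05 (limma). In this comparison the vector cannot be told apart from the experiment or the slide.

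Ordered by group mean, Esrrb was lowest with shEGFP (-1.81), followed by Mkl1 (-1.24), EGFP (-1.22), shActb_1 (-1.03), shActb_2 (-0.90) and the arrays labelled Srf (1.31). Mkl1 and EGFP overlapped, and the hairpins did not differ beyond array error. Klf2 was lowest with shActb_1 (-0.52), then shActb_2 (-0.29), shEGFP (0.28), the arrays labelled Srf (0.53), EGFP (0.54) and Mkl1 (0.77), and EGFP overlapped with both of its neighbours. Klf4 ran from 0.78 on the arrays labelled Srf through Mkl1 (1.08), shActb_2, shActb_1 (1.49) and EGFP to shEGFP (1.74), of which shActb_1 and EGFP overlapped. Each of its treatment groups had a lower mean than its own control.

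The remaining probes were dim. Zfp42, the zinc finger gene also called Rex1, ranged from -6.17 to -4.42 and was not above background on 1 array each of EGFP, Mkl1 and shActb_1. None of its differences in the 4 treatment comparisons passed, and with Mkl1 it was not tested. Of the dimmer Dppa4 probes, A_55_P2065549 was above background on both arrays labelled Srf (mean -4.81) and on neither EGFP nor Mkl1 array (means -5.80 and -5.78). It was at least 1.17-fold higher than with EGFP and at least 1.49-fold higher than with Mkl1, without passing the test (adjusted p = 0.111 and 0.12). These bounds set the bright group's mean against the higher of the probe's own dim signal and the lowest signal well above background on each dim array. The brighter Dppa4 probe was lower on the same arrays, so the probes of Dppa4 disagreed. The third (A_66_P101192) was above background on 3 arrays of different groups and was not tested.

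Esrrb and Klf2 had the widest ranges of group means for a single gene's brightest probe present on all arrays (3.12 and 1.29). Among 3373 named genes with a range of at least 1 on the log2 scale, the pattern of Esrrb over the 12 arrays was most like that of Slc6a4, the serotonin transporter (Pearson r = 0.980), Exoc3l4 (0.979) and Shisa4 (0.979). That of Klf2 was most like Tmem41b (0.911), Sh2d3c (0.884) and Rdh10 (0.882). These correlations describe 12 arrays in 6 groups that share slides and controls, and a group standing apart, as the arrays labelled Srf do for Esrrb, is enough to give a high value.

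Other genes of the pluripotency network were viewed as a list of 33, each by its brightest probe, of which 26 or 27 were tested in each comparison. Nr5a2, the orphan nuclear receptor that can replace Pou5f1 in reprogramming, rose by 1.69 on the arrays labelled Srf (SE 0.14, adjusted p = 0.000203) and fell by 1.15 with shActb_2 (adjusted p = 0.000949). Sox2, partner of Pou5f1 and also a neural progenitor gene, fell by 1.05 on the arrays labelled Srf (SE 0.14, adjusted p = 0.00186) and by 1.01 with shActb_1 (adjusted p = 0.00584). Lefty1, an inhibitor of Nodal, fell by 1.48 on the arrays labelled Srf (adjusted p = 0.000197). Dppa2, the partner of Dppa4, was well above background on both Mkl1 arrays (mean -4.00) and on neither EGFP array (measured mean -5.10). It was at least 1.89-fold higher with Mkl1, a bound under 2-fold, and entered the test through the Mkl1 arrays alone. In all, 1 rose and 2 fell on the arrays labelled Srf, 1 rose with Mkl1, 1 fell with shActb_1 and 1 fell with shActb_2, against 5.54%, 2.78%, 1.61% and 6.31% called over all probes. By adjusted p alone 11, 11, 2 and 10 passed in that order (42.3%, 42.3%, 7.69% and 37.0%), against 25.5%, 20.8%, 9.42% and 40.3% of all probes tested. The list's medians were 0.08, -0.17, -0.02 and 0.07, beside -0.04, -0.03, 0.01 and -0.02 over all probes tested.

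**Figure D4:**
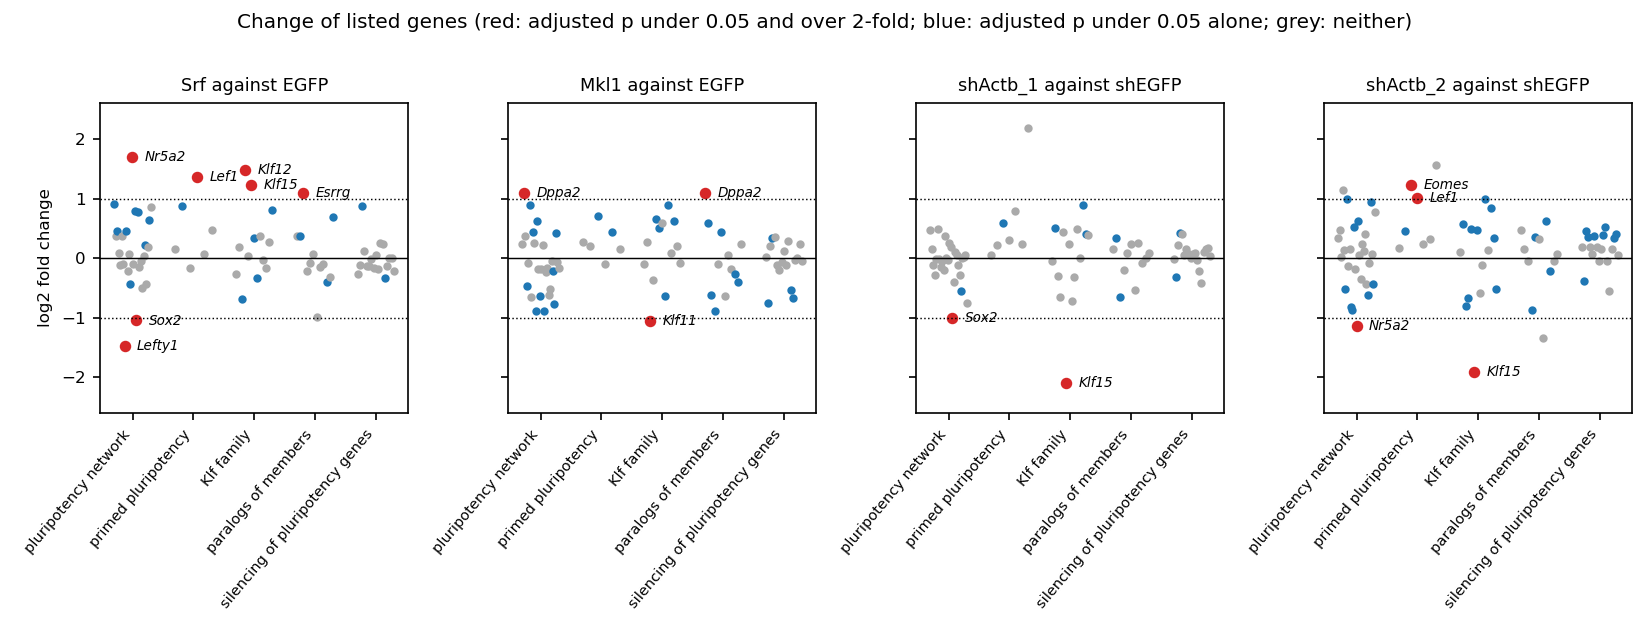
Difference in log2 signal (vertical axis) of each tested gene of 5 lists (horizontal axis) in the 4 treatment comparisons, by its brightest probe; dotted lines mark 2-fold. Named red points passed the criterion by measured values. Among them were Nr5a2 at 1.69 on the arrays labelled Srf and at -1.15 with shActb_2, and Klf15 at -2.09 and -1.91 with the hairpins. Dppa2 with Mkl1 and Klf15 on the arrays labelled Srf are drawn against EGFP arrays not well above background. Their bounds, 1.89-fold and 1.79-fold, are under 2-fold.

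Of 10 genes of primed pluripotency, the state after implantation, 6 or 7 were tested. Lef1, the nuclear partner of β-catenin, rose by 1.36 on the arrays labelled Srf (adjusted p = 0.00018) and by 1.01 with shActb_2 (adjusted p = 0.000603). Eomes, a T-box factor, rose by 1.22 with shActb_2 (adjusted p = 0.000603). No other gene of this list was called, so that 1, 0, 0 and 2 genes were called by limma for the arrays labelled Srf, Mkl1, shActb_1 and shActb_2 and 2, 2, 1 and 3 passed by adjusted p. The shares over all probes are those given for the network. The medians were 0.31, 0.23, 0.31 and 0.45, beside -0.04, -0.03, 0.01 and -0.02 over all probes tested.

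Of the 14 other Krüppel-like factors, 13 or 14 were tested. Klf12 rose by 1.49 on the arrays labelled Srf (adjusted p = 0.000886). Klf15 was well above background on both arrays labelled Srf (mean -4.19) and on neither EGFP array (measured mean -5.41). It was at least 1.79-fold higher on the former, a bound under 2-fold, and entered the test through those arrays alone. Klf11 fell by 1.06 with Mkl1 (adjusted p = 0.00166). Klf15 fell by 2.09 with shActb_1 and by 1.91 with shActb_2 (adjusted p = 0.00932 and 0.00381), and it was above background on 8 arrays. Klf5, which shares ESC targets with Klf2 and Klf4, was higher by 0.89 with Mkl1 (adjusted p = 0.00388) and by 0.99 with shActb_2 (adjusted p = 0.0012), under 2-fold. The calls, with Klf15 on the arrays labelled Srf included, were 15.4%, 7.69%, 7.14% and 7.14% of the genes tested, against 5.54%, 2.78%, 1.61% and 6.31% of all probes. By adjusted p alone 46.2%, 46.2%, 28.6% and 71.4% of the family passed, against 25.5%, 20.8%, 9.42% and 40.3%. The medians of the family were 0.18, 0.21, 0.12 and 0.12.

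The 4 genes of the reprogramming cocktail are Pou5f1, Klf4, Sox2 and Myc, and of these Sox2 changed as given above. Myc was higher by 0.72 on the arrays labelled Srf (adjusted p = 0.0121) and by 0.68 with Mkl1 (adjusted p = 0.0187), under 2-fold, while Klf4 was lower in both. Of 15 paralogs of the 10 genes, 14 had a probe and 11 or 12 were tested. Esrrg, a paralog of Esrrb, rose by 1.09 on the arrays labelled Srf (SE 0.11, adjusted p = 0.00054). It was lower by 0.62 with Mkl1 and by 0.65 with shActb_1, under 2-fold (limma, adjusted p = 0.00953 and 0.0138). Dppa2 was at least 1.89-fold higher with Mkl1, with the limits given above. The paralog Esrra was higher by 0.37 on the arrays labelled Srf (adjusted p = 0.0031), by 0.59 with Mkl1 (adjusted p = 0.000815) and by 0.33 with shActb_1 (adjusted p = 0.0125), under 2-fold. By adjusted p alone 33.3%, 58.3%, 18.2% and 36.4% of the paralogs tested passed, against 25.5%, 20.8%, 9.42% and 40.3% of all probes tested. The paralogs' medians were -0.09, -0.14, 0.09 and 0.07. Of 18 genes that silence pluripotency genes, such as DNA and histone methyltransferases, 17 or 18 were tested and 0 were called by limma. Of these 2, 4, 2 and 8 passed by adjusted p alone (11.8%, 23.5%, 11.1% and 44.4%, against 25.5%, 20.8%, 9.42% and 40.3% of all probes tested) and 5, 8, 5 and 8 had an unadjusted p under 0.05, with medians of -0.12, -0.03, 0.07 and 0.18.

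Markers of other cell types moved with the same groups, and their part in the values above was not tested. The counts of calls stand against 5.54% of all probes called on the arrays labelled Srf, 2.78% with Mkl1, 1.61% with shActb_1 and 6.31% with shActb_2, and with 4 to 15 genes tested per list 1 call is already a share of 6.67% or more. The summed signal of the 18 ESC markers, in multiples of the 75th percentile, was 7.31 to 8.60 with EGFP, 8.59 to 9.04 on the arrays labelled Srf and 6.64 to 7.07 with Mkl1. It was 8.36 to 8.58 with shEGFP, 7.12 to 7.54 with shActb_1 and 6.82 to 7.12 with shActb_2. A sum over probes is compared between groups only. Without Esrrb it was 6.30 to 6.35 on the arrays labelled Srf against 6.91 to 8.15 with EGFP. Of the neural progenitor markers 1 of 12 fell on the arrays labelled Srf and 3 and 2 fell with the hairpins, whereas with Mkl1 there was 1 call in each direction. Their sum was 285 to 299 with EGFP, 260 to 269 on the arrays labelled Srf and 324 to 338 with Mkl1. It was 256 to 260 with shEGFP, 276 to 280 with shActb_1 and 367 to 369 with shActb_2. Without Vim the sum was 25.7 to 26.9 with EGFP, 22.9 to 23.4 on the arrays labelled Srf, 39.6 to 40.7 with Mkl1, 26.8 to 27.6 with shEGFP, 29.6 to 32.5 with shActb_1 and 37.7 to 37.8 with shActb_2. Of 7 neuronal markers 1 rose and 1 fell on the arrays labelled Srf and 2 fell in each other treatment, with sums of 14.0 to 14.8 with EGFP and 12.9 to 13.4, 9.67 to 10.9, 10.6 to 11.1 and 10.4 to 11.2 with the treatments in that order, beside 14.1 to 16.1 with shEGFP. Of 6 mesenchymal markers 1 fell on the arrays labelled Srf, 2 with Mkl1 and 1 with each hairpin. Their sums were 183 to 185 with EGFP, 145 to 154 with shEGFP, 105 to 109 on the arrays labelled Srf, 107 to 127 with Mkl1, 112 to 122 with shActb_1 and 88.1 to 91.6 with shActb_2. Of 6 macrophage markers 2 rose and 1 fell on the arrays labelled Srf, with sums of 5.60 to 6.20 there against 2.51 to 2.97 with EGFP. In that list 1 fell with Mkl1 (3.65 to 3.67) and 2 fell with shActb_2. Of 6 markers of primitive endoderm 1 fell on the arrays labelled Srf, 1 fell with shActb_1 and 2 rose with shActb_2. The sums were 4.90 to 4.95 with EGFP, 3.76 to 3.99 on the arrays labelled Srf and 4.71 to 4.94 with Mkl1. They were 5.16 to 5.28 with shEGFP, 3.30 to 3.46 with shActb_1 and 4.69 to 4.87 with shActb_2. By adjusted p all 5 tested genes of that list passed on the arrays labelled Srf, against 25.5% of all probes tested. Of these 4 were higher, under 2-fold, and Foxa2 was lower by 1.18 (median of the list 0.64). Of 5 astrocyte markers 1 fell on the arrays labelled Srf, where the sum was 34.7 to 37.5 against 65.2 to 81.3 with EGFP. It was 50.6 to 55.5 with Mkl1, 50.2 to 50.7 with shEGFP, 36.6 to 37.7 with shActb_1 and 56.9 to 60.3 with shActb_2. This sum was carried mainly by Aldoc, the marker that fell (mean level 4.96 on the arrays labelled Srf against 6.13 with EGFP). By adjusted p 1 of the 4 markers tested was higher there and 1 lower. Of 6 markers of the oligodendrocyte lineage 0 were called by limma in any treatment, with 1 or 2 at an unadjusted p under 0.05.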

How the data were processed

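The 1-colour Agilent mouse arrays carried 62976 features, as in the 8 × 60K format of the study's methods and unlike the format the labels name. Scans were quantified by the authors (Feature Extraction 11.5.1.1), who deposited the processed signal intensity of each spot after background subtraction, not normalized between arrays. The authors also deposited a table of log2 values, which differed from log2 of that signal by a constant per array within 0.01. Here log2 was taken of the processed signal, replicate spots were averaged per probe, and each array's 75th percentile was subtracted. Flagged outliers and control features were dropped, though a spot's background flag was read for every spot. Transcript accessions, without versions, were matched to RefSeq's GRCm38.p6 table, and 28026 of 55681 probes (50.3%) received a gene symbol. Coordinates belong to the promoters of that table, since the arrays were designed on another build.

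Groups were taken from the sample titles. One limma 3.58.1 model (R 4.3.3, lmFit then eBayes) covered all 12 arrays with a mean for each of the 6 groups, so that these share 1 estimate of the error. A probe was tested where both arrays of either compared group had it well above background, and p-values were adjusted by Benjamini-Hochberg over all probes tested. Calls required over 2-fold change and an adjusted p below 0.05. All tests were two-sided. The number of arrays limits the precision. On simulated data for the Srf comparison (35463 probes), 82% of 200 probes changed by 2 on the log2 scale were recovered, and 1.2% of calls were false. The simulated errors were independent, with the spread between arrays and no slide differences. These rates therefore do not extend to smaller changes, such as most of those reported here, or to differences between slides or cultures.

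Every member probe was followed, and each listed gene was represented by its probe of highest mean signal. Of the 6 gene lists (pluripotency network, primed pluripotency, Klf family, paralogs, reprogramming cocktail, silencing) called genes are named, with a few others chosen after their values were seen (Klf5, Myc, Esrra). The members, gene lists and marker lists were chosen with earlier results of these data known. The alternatives were quantile normalization, normexp (offset 50, on the median spot signal), the deposited table, other filters, fits and thresholds, the replicate number as a block and each array left out. The numbers were not taken to pair the arrays. No probe sequence was used here.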

Additional observations from a re-analysis of the deposited data

Results flagged for a closer look

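Between the hairpins, which were tested against each other, 2 member probes differed by adjusted p. One Nanog probe (A_55_P2007699) was lower with shActb_2 than with shActb_1 by 0.90 on the log2 scale, a value of -0.90 (limma, adjusted p = 0.0155). It did not pass without shActb_1 replicate 1, without shActb_1 replicate 2 or without shActb_2 replicate 2 (highest adjusted p = 0.102). The other two Nanog probes differed by 0.15 and by less than 0.01. Klf4 differed by -0.29 (adjusted p = 0.0202) and passed under 15 of 20 alternatives, with values from -0.39 to -0.20. The shActb_2 arrays lay on a slide of their own, so the slide and the second hairpin cannot be told apart in either value.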

How the results depend on the processing

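The member probes called were 1 on the arrays labelled Srf, 0 with Mkl1, 0 with shActb_1, 1 with shActb_2, 2 for the arrays labelled Srf against Mkl1, 0 between the hairpins and 0 between the controls. By adjusted p alone these counts were 3, 4, 4, 8, 6, 2 and 5. Quantile normalization gave 2 for Srf against EGFP and 1 for Srf against Mkl1. The normexp correction gave 0 with shActb_2 and 1 for Srf against Mkl1. Leaving out each array in turn gave 1 to 2 (Srf), 0 to 1 (Mkl1), 0 (shActb_1), 1 to 2 (shActb_2), 1 to 3 (Srf against Mkl1), 0 to 2 (hairpins) and 0 to 1 (controls). The calls added by leaving out an array were Dppa4 (Srf, without Srf replicate 2), the brightest Nanog probe (Mkl1, without EGFP replicate 2) and Pou5f1 in both shActb_2 comparisons without shActb_2 replicate 1, where the Nanog probe A_55_P2007699 was also called between the hairpins. That probe was called for Srf against Mkl1 without Srf replicate 2. Between the controls Sall4 was called without EGFP or shEGFP replicate 2 and one Tfcp2l1 probe without shEGFP replicate 1. With shActb_2 the call was Esrrb in place of Nanog without shEGFP replicate 1 and after quantile normalization. With the replicate block the counts were 1, 0, 0, 1, 2, 0 and 0, and same-numbered arrays correlated at -0.0022 to 0.26 in their deviations, so the numbers were not taken as pairs. The deposited table, the other filters and fits and the fold threshold alone left the counts within 1.5 times. The fit of one slide alone was not possible for shActb_2 or between the controls, which no slide holds together. Over the alternatives 1755 single values kept their side of the adjusted p, 108 lost their pass and 19 gained one. Of the 92 member values 23 changed sign under at least 1 alternative (42 cases in all), none of them past the adjusted p with either sign. Where settings changed a value, the cause was not tested.

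With the mean of both hairpins, arrays averaged and hairpins as replicates (chosen after seeing the data), limma called 0 of 35710 probes and 0 passed by adjusted p (1086 at an unadjusted p under 0.05), against 707 and 9700 with array error. That fit has 1 residual degree of freedom and 1 averaged control, so its 0 says nothing about the stability of the values. Dim probes limit the precision for Pou5f1, Zfp42 and Dppa4.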
